A study of Mus musculus with 22 samples.

Results

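Id1, Id2, Id3 and Id4 are the members of one small mouse gene family, and A330033J07Rik is a long non-coding RNA transcribed from the opposite strand at the Id4 locus. These 5 genes were taken by symbol from the raw count tables of the hypothalamus, where they were 5 of 20668 genes measured in nuclei and 5 of 16304 genes measured in whole cells. They were described per cell type and per cluster, in mice given FGF1 into the brain and in mice given vehicle. The genes were chosen by their fold changes between FGF1 and vehicle in these same nuclei and cells, so their own fold changes are given as descriptions, with standard errors and no p-values.

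All mice were male ob/ob animals of 11 weeks, which lack leptin and are obese and hyperglycaemic, so that no lean or leptin-intact group was compared. The treated mice received a single icv dose of 3 µg recombinant human FGF1 through a cannula in the lateral ventricle. The vehicle mice received phosphate-buffered saline by the same route and were pair-fed to the FGF1 group. Frozen hypothalamic tissue gave single nuclei (snRNA-seq) 1 day after injection from 3 FGF1 and 3 vehicle mice, and 5 days after injection from 2 FGF1 and 2 vehicle mice, while freshly dissociated mediobasal hypothalamus gave whole cells (scRNA-seq) 5 days after injection from 6 FGF1 and 6 vehicle mice. Each of the 22 libraries came from 1 mouse.

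The Id proteins carry a helix-loop-helix dimerisation domain but lack the basic region with which most proteins of that class hold DNA. They bind the widely expressed E proteins and keep them from pairing with tissue-specific bHLH factors at E-box sequences, which delays differentiation in many lineages. Id1, Id2, Id3 and Id4 are well-known direct targets of bone morphogenetic protein (BMP) signalling through Smad1, Smad5 and Smad8. In the brain Id4 is expressed in astrocytes, in neural stem cells and in the radial-glia-like cells that line the ventricles, and tanycytes are the cells of this kind in the wall of the third ventricle.

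In the gene annotation used here (GENCODE vM21, GRCm38) Id1 lies at chr2:152736251-152737410 on the plus strand, Id2 at chr12:25093799-25097140 on the minus strand and Id3 at chr4:136143497-136145755 on the plus strand. Id4 lies at chr13:48261228-48266026 on the plus strand and has 3 exons. A330033J07Rik lies at chr13:48044231-48262623 on the minus strand, also with 3 exons, and its 218.4 kb contrast with the 4.8 kb of Id4. Its start lies 1395 bases downstream of the Id4 start, inside the Id4 gene, and 82 bases of its first exon, which is 704 bases long, lie opposite 2 exons of Id4. The 3′ libraries keep strand, so reads from the Id4 strand and from the antisense strand were counted apart. Exons of A330033J07Rik also overlap those of Gm49291 on the same strand, a gene that neither count table lists, so the counts of A330033J07Rik are uncertain to the extent that reads of the overlap were dropped or assigned to it. Gm36346, a non-coding gene on the same strand, lies within an intron of A330033J07Rik. Intronic reads were counted for nuclei, so the nuclear counts are also uncertain there, and how such reads were assigned is not known.

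**Figure D1:**
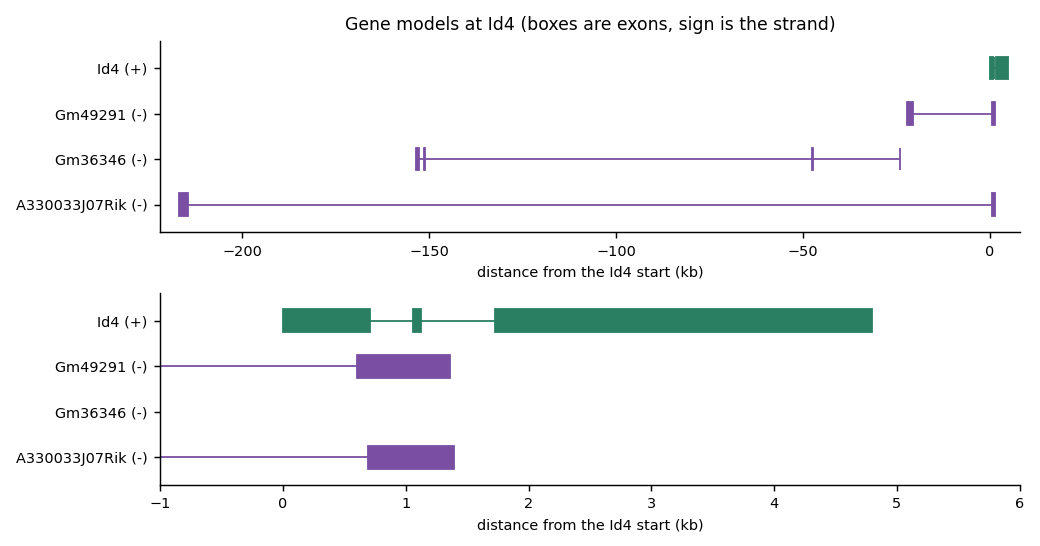
Gene models at the Id4 locus, drawn to scale against the distance in kb from the Id4 start, in a wide view (upper panel) and around the Id4 gene (lower panel). Boxes are exons and lines are introns. A330033J07Rik starts inside Id4, 1395 bases after the Id4 start, and runs for 218.4 kb on the other strand, back across the Id4 start.

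The sequences just before the starts of Id4 and A330033J07Rik are shown because these neighbouring starts point in opposite directions while both transcripts were lower in the same glial nuclei on Day 1. They are the 250 bases before each RefSeq start (GRCm38.p6), written 5′ to 3′ on the strand of the gene. Capitals mark GGCGCC, a palindrome found in Id gene promoters that phosphorylated Smad proteins can hold, CAGAC with its reverse complement GTCTG, which contains the Smad-binding box, and the E-box CANNTG. The stretch before Id4 lies at chr13:48260866-48261115 on the plus strand and the stretch before A330033J07Rik at chr13:48262624-48262873 on the minus strand, within an intron of Id4.
Id4: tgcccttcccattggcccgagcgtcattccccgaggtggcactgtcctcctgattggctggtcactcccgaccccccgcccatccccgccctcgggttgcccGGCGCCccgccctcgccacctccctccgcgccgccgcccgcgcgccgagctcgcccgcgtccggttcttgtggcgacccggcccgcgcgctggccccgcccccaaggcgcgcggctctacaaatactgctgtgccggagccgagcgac
A330033J07Rik: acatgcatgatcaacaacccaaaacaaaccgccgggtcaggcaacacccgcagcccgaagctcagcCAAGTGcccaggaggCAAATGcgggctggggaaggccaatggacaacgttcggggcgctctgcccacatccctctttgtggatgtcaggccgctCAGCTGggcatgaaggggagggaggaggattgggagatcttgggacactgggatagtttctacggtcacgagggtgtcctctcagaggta

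The stretch before Id4 held 75.6% G and C bases and that before A330033J07Rik held 59.2%. The Id4 stretch held 1 GGCGCC, 148 bases before the start, and no CAGAC or E-box. The A330033J07Rik stretch held 3 E-boxes, at 184, 169 and 90 bases before the start, and neither of the other motifs. The RefSeq starts of Id2 and Id3 lie inside their genes as GENCODE draws them, so the stretches before them cover exons and are not described, and the RefSeq start of Id4 lies just before its GENCODE start. Such matches are common, since GGCGCC was present in 9.59%, CAGAC on either strand in 42.2% and the E-box in 66.2% of 32851 stretches of 250 bases before gene starts. They describe the letters and do not show that a factor was bound.

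Levels are given as counts of unique molecular identifiers (UMIs) per 1000000 UMIs of the same mouse and cell type (CPM), and log2 fold changes are FGF1 over vehicle from edgeR with TMM scaling. Intronic reads were counted for nuclei, so that nuclear and whole-cell levels of one gene, and levels of genes as unlike in length as Id4 and A330033J07Rik, are not on one scale. Each mouse's library gave 2388 to 7194 whole cells with FGF1 and 1967 to 7926 with vehicle, at medians of 1142 to 2090 and 1117.5 to 1631 UMIs per cell. On Day 1 the FGF1 nuclei were shallower, with medians of 2029 to 2816 UMIs against 3178.5 to 3776 with vehicle, and on Day 5 vehicle replicate 38 gave only 591 nuclei. Nuclei carry the authors' type labels, and the labels Olig, Micro and COP also held neuronal RNA, the neuron marker list summing to 123 of every 10000 UMIs in COP nuclei against 37.7 in astrocyte nuclei. Whole-cell clusters were named here from fixed markers. The same barcode sequence occurred in more than 1 library for 318 of 24645 barcode sequences in nuclei and for 1791 of 53065 in whole cells.

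In whole cells of vehicle mice the Id genes had unlike distributions. Id1 and Id3 were highest in the vessel wall, Id2 in astrocytes and microglia, and Id4 in the cells of the ventricular wall and in astrocytes. Id1 was at 1000 ± 332 CPM (SD, n = 6) in endothelial cells, against 58.0 ± 10.3 CPM in astrocytes and 19.0 CPM in tanycytes. Id3 was at 1136 ± 259 CPM in endothelial cells and close to that mean in vascular leptomeningeal cells (VLMC, 1115 CPM) and smooth muscle cells (1111 CPM), with 340 ± 92.2 CPM in astrocytes and 29.3 CPM in committed oligodendrocyte precursors (COP). The endothelial, VLMC and smooth muscle values of Id3 cannot be put in an order.

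Id2, the member best known from lymphoid and neural development, was at 795 ± 111 CPM in astrocytes, 535 ± 190 CPM in microglia, 398 ± 26.5 CPM in oligodendrocyte precursors (OPC) and 61.1 CPM in COP. Id4 was at 174 ± 35.3 CPM in tanycytes, 153 ± 37.7 CPM in ependymal cells and 93.1 ± 18.8 CPM in astrocytes, and at or below 32.8 CPM in every other named type. The antisense transcript was sparse in whole cells and had the same leading types as Id4. A330033J07Rik was at 7.84 CPM in ependymal cells, 6.45 CPM in tanycytes, 4.28 CPM in astrocytes and at or below 2.65 CPM elsewhere.

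Neighbours in these orders were compared within mice by an exact two-sided sign-flip permutation test on log2(CPM + 1). None of 55 neighbouring pairs passed after Benjamini-Hochberg adjustment, which could not be reached with 6 mice, since the smallest p the test allows is 0.03125 and its adjusted value was 0.344. That smallest p was reached where all 6 mice gave the same order, for Id1 in astrocytes over tanycytes (log2 difference 1.72), Id2 in oligodendrocytes over ependymal cells (0.32), Id3 in ependymal cells over oligodendrocytes (0.58) and Id4 in ependymal cells over astrocytes (0.70). Id4 in tanycytes and ependymal cells could not be separated, with tanycytes higher in 4 of 6 mice (exact permutation p = 0.125), nor could A330033J07Rik, which was higher in ependymal cells than in tanycytes in 3 of 6 mice. Id2 was higher in astrocytes than in microglia in 5 of 6 mice (exact permutation p = 0.0625).

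**Figure D2:**
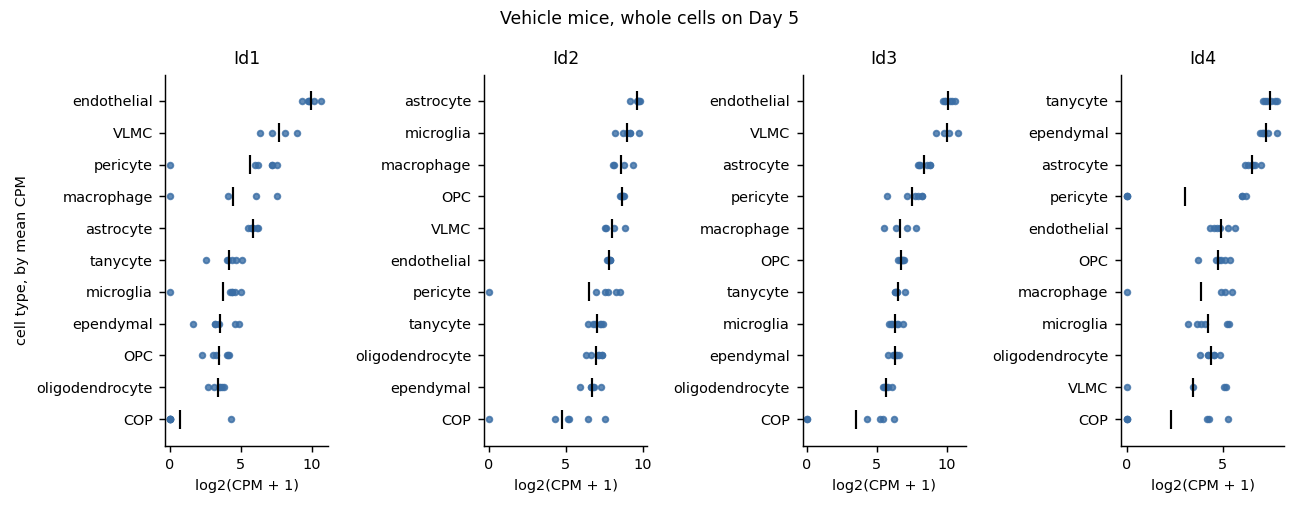
Levels of Id1, Id2, Id3 and Id4 in whole cells of vehicle mice, as log2(CPM + 1) per mouse (dots) with the group mean (short bars). Cell types are ordered by mean CPM within each gene, and smooth muscle cells are not drawn. Endothelial cells lead for Id1 and Id3, astrocytes for Id2 and tanycytes for Id4.

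In vehicle nuclei A330033J07Rik was led by the same glial types, with Day 1 means of 609 CPM in ependymal, 397 CPM in tanycyte and 366 CPM in astrocyte nuclei (3 mice each). Pooled with the Day 5 vehicle mice that had enough nuclei, the tanycyte mean was 343 CPM (4 mice) and the astrocyte mean 289 CPM (5 mice), while no Day 5 mouse entered the ependymal mean. The values that follow pool both days, except in VLMC nuclei, of which no Day 5 vehicle mouse had enough. Among neurons it was highest in the Rgs16/Vip type (182 CPM), and it was at 68.7 CPM in the neurons that the authors left unmapped. Id2 was highest in astrocyte nuclei (486 CPM), Id3 in astrocyte (285 CPM) and VLMC nuclei (244 CPM) and Id1 in VLMC nuclei (119 CPM).

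The genes whose levels most resembled each member were ranked by Pearson's r of log2(CPM + 1) across 64 vehicle libraries of whole cells, 1 per mouse and type over 12 types, among 9926 genes with a mean of at least 10 CPM. Libraries of one type share markers, so these values describe cell-type distributions. The nearest to Id1 were Cldn5, an endothelial tight junction protein (r = 0.869), Ly6a (0.818) and Flt1, a VEGF receptor (0.815). The nearest to Id3 were Epas1, a hypoxia-inducible factor subunit abundant in endothelium (0.779), Dlc1 (0.761) and Ly6a (0.738). Those nearest to Id2 were Chd9 (0.707), Nrarp, a Notch pathway regulator (0.681), and Gabbr2, a GABA-B receptor subunit (0.672). Among the genes like Id4 were Gm10419 (0.765) and Clybl (0.758), and the nearest to A330033J07Rik were 4932443I19Rik (0.812), 2410004P03Rik (0.747) and P2rx6 (0.738).

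On Day 1 after icv FGF1 the antisense transcript was lower in nuclei of every type compared, and Id2 was higher in every type. The mean CPM of A330033J07Rik was lower with FGF1 in 18 of 18 types and that of Id2 higher in 18 of 18 types, while Id4 was lower in 15 and Id3 lower in 8 and higher in 10. The types came from the same 3 FGF1 and 3 vehicle mice, so they are not independent and such counts do not add replicates. The share of all genes with the same sign in every type is not given here. Of 85 gene and type pairs, 27 had enough counts to be tested, and 3 were called at an FDR below 0.05, all 3 of them A330033J07Rik, in ependymal, tanycyte and astrocyte nuclei. Over all genes and types 1.05% of the 72292 tests were called, with 19% in ependymal, 9.14% in tanycyte and 1.55% in astrocyte nuclei. The shares of genes without overlap given below are likewise of the genes tested.

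In ependymal nuclei A330033J07Rik was at 550, 660 and 616 CPM in the 3 vehicle mice and at 15.3, 24.5 and 0 CPM in the 3 FGF1 mice. The groups did not overlap, as for 17.1% of genes lower in these nuclei, with 119 UMIs in vehicle nuclei and 3 in FGF1 nuclei. The mean fell from 609 ± 55.1 to 13.3 ± 12.4 CPM (SD, n = 3 per group), a log2 fold change of -5.21 ± 0.48 (SE).

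Tanycyte nuclei, from the cells of the floor and lower wall of the third ventricle, behaved in the same way. Their A330033J07Rik level was 316, 399 and 477 CPM with vehicle and 5.02, 13.3 and 25.2 CPM with FGF1, a fall from 397 ± 80.4 to 14.5 ± 10.1 CPM with a log2 fold change of -5.06 ± 0.52. It rested on 137 UMIs against 6, and 13.5% of genes in these nuclei were lower without overlap.

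Astrocyte nuclei had 489, 202 and 408 CPM of A330033J07Rik with vehicle and 5.86, 15 and 36.5 CPM with FGF1. Every FGF1 mouse was below every vehicle mouse, as for 6.7% of genes in these nuclei. The mean fell from 366 ± 148 to 19.1 ± 15.7 CPM, from 295 UMIs to 19, with a log2 fold change of -4.50 ± 0.69. The astrocyte call was lost without FGF1 replicate 2 (log2 fold change -4.37) and without vehicle replicate 1 (-4.19), and those in ependymal and tanycyte nuclei held without any 1 mouse. In each of the 3 glial types the FGF1 mouse was lower than the vehicle mouse of its batch in 3 of 3 batches, which follows from the lack of overlap.

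A330033J07Rik was also lower in neurons and oligodendrocytes, by less. In the Rgs16/Vip neurons it was at 148, 240 and 267 CPM with vehicle and 40.7, 84.4 and 13.3 CPM with FGF1 (log2 fold change -2.05 ± 0.43, and -2.76 without FGF1 replicate 2). The Nr5a1/Adcyap1 neurons, which carry markers of the ventromedial nucleus, had 56.9, 85.7 and 90.7 CPM against 19.2, 28.6 and 10.6 CPM (-1.86 ± 0.36). In unmapped neurons the values were 76.8, 63.7 and 94.8 CPM against 29.1, 44.5 and 41.4 CPM (-1.01 ± 0.25), and in oligodendrocyte nuclei 75.8, 64.6 and 40.7 CPM against 26.4, 35 and 29.8 CPM (-0.99 ± 0.37). The neurons labelled Oxt, for oxytocin, were at 91.9, 147 and 135 CPM with vehicle and 22.1 and 80.6 CPM in 2 FGF1 mice (-1.14 ± 0.54), a value of -0.62 without FGF1 replicate 1 and -2.47 without FGF1 replicate 2. In none of these types did the groups overlap, as for 4.63%, 8.9%, 7.41%, 5.94% and 10.1% of genes lower in them, in the order given. None of these values was called by edgeR with the low-count filter. DESeq2 called that of the Nr5a1/Adcyap1 neurons, and edgeR without the filter called those of the Rgs16/Vip and Nr5a1/Adcyap1 neurons.

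All 11 tested log2 fold changes of A330033J07Rik were negative, from -5.21 to -0.79 with a median of -1.31, and across the 18 types the groups did not overlap in 11, all lower with FGF1. Among tested gene and type pairs 8.34% were lower with FGF1 without overlap, while the 11 types include VLMC, where A330033J07Rik was not tested. In VLMC nuclei A330033J07Rik was at 149, 62.6 and 290 CPM with vehicle and had no UMI in the 2 FGF1 mice with enough nuclei. In this type 19.6% of genes were lower without overlap. With UMIs pooled over the mice of each group, the level was at least 4.90-fold lower against a floor of 3 counts over the FGF1 group. This pooled bound takes no account of the spread between mice.

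Id4, on the other strand, was lower in the same 3 glial types. In ependymal nuclei it was at 153, 132 and 158 CPM with vehicle and 15.3, 24.5 and 17.9 CPM with FGF1, with no overlap and means of 147 ± 13.6 and 19.2 ± 4.73 CPM. With 29 UMIs against 4 it did not pass the filter on low counts, so edgeR gave no value.

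In astrocyte nuclei Id4 was at 64, 73 and 136 CPM with vehicle and 28.5, 45.1 and 60.8 CPM with FGF1. The groups did not overlap, and the log2 fold change was -1.02 ± 0.45, which was not called. In tanycyte nuclei it was at 87.4, 57 and 112 CPM against 37.6, 26.6 and 63 CPM, where the groups overlapped. VLMC nuclei held 12 Id4 UMIs with vehicle and none with FGF1, at least 2.26-fold lower on pooled UMIs against the same floor. That floor was 31.9 CPM and the lowest vehicle mouse was at 20.9 CPM, so the bound does not hold for each vehicle mouse. In VLMC nuclei 19.6% of genes were lower without overlap. In unmapped neurons the Id4 level was 13.9 CPM with vehicle and 12.8 CPM with FGF1 (-0.06 ± 0.34).

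Id2 went the other way. In astrocyte nuclei, its highest nuclear type, it was at 717, 453 and 426 CPM with vehicle and 1654, 1152 and 1107 CPM with FGF1. Every FGF1 mouse was above every vehicle mouse, as for 7.77% of genes there, and the mean was 532 ± 161 CPM against 1304 ± 304 CPM (log2 fold change 1.37 ± 0.58). In tanycyte nuclei Id2 was at 242, 71.3 and 126 CPM against 389, 459 and 328 CPM (1.45 ± 0.44, and from 1.05 to 2.09 without 1 mouse, the latter without vehicle replicate 1), again without overlap, as for 13% of genes.

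The label COP covers oligodendrocyte precursors and committed precursors, and in it Id2 was at 59.1, 62.2 and 46.3 CPM with vehicle and 219, 144 and 108 CPM with FGF1 (1.56 ± 0.36). The unmapped neurons held less Id2, at 27.1, 30.1 and 20.1 CPM against 70.8, 42 and 49.6 CPM (1.09 ± 0.27). The groups did not overlap in either, as for 5.15% and 5.18% of genes higher there. In ependymal nuclei they overlapped, at 107, 115 and 186 CPM against 413, 184 and 144 CPM (0.83 ± 0.45, and 0.32 without FGF1 replicate 1). The 9 tested log2 fold changes of Id2 were all positive, with a median of 1.25. In every tested type except tanycyte nuclei, leaving out FGF1 replicate 1 gave the lowest value of any mouse left out. It was then 1.02 in astrocyte, 1.25 in COP, 0.83 in unmapped, 0.70 in VLMC and 0.68 in Rgs16/Vip nuclei. Its groups did not overlap in 9 of 18 types, counted whether tested or not, all higher with FGF1. Among tested gene and type pairs 7.17% were higher without overlap. Id2 was not called in any type by the main edgeR fit or by DESeq2. In tanycyte nuclei edgeR called it without the filter on low counts, and also among barcodes within the stated mitochondrial and ribosomal limits.

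Id3 and Id1 had no common direction. Id3 in astrocyte nuclei was at 365, 279 and 309 CPM with vehicle and 320, 278 and 195 CPM with FGF1 (log2 fold change -0.18 ± 0.49), and its mean in tanycyte nuclei was 113 CPM against 121 CPM (0.22 ± 0.43). Both signs turned when 1 mouse was left out. In VLMC nuclei the mean of Id3 was 244 CPM against 482 CPM (1.05 ± 0.64, and 0.29 without FGF1 replicate 1), and in ependymal nuclei 181 ± 105 CPM against 65.9 ± 28 CPM without a test. Id1 was tested in astrocyte nuclei alone, at 146, 23.2 and 55.6 CPM with vehicle and 79.5, 45.1 and 36.5 CPM with FGF1 (-0.24 ± 0.65, and 0.79 without vehicle replicate 1), and it had no UMI in 5 types.

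**Figure D3:**
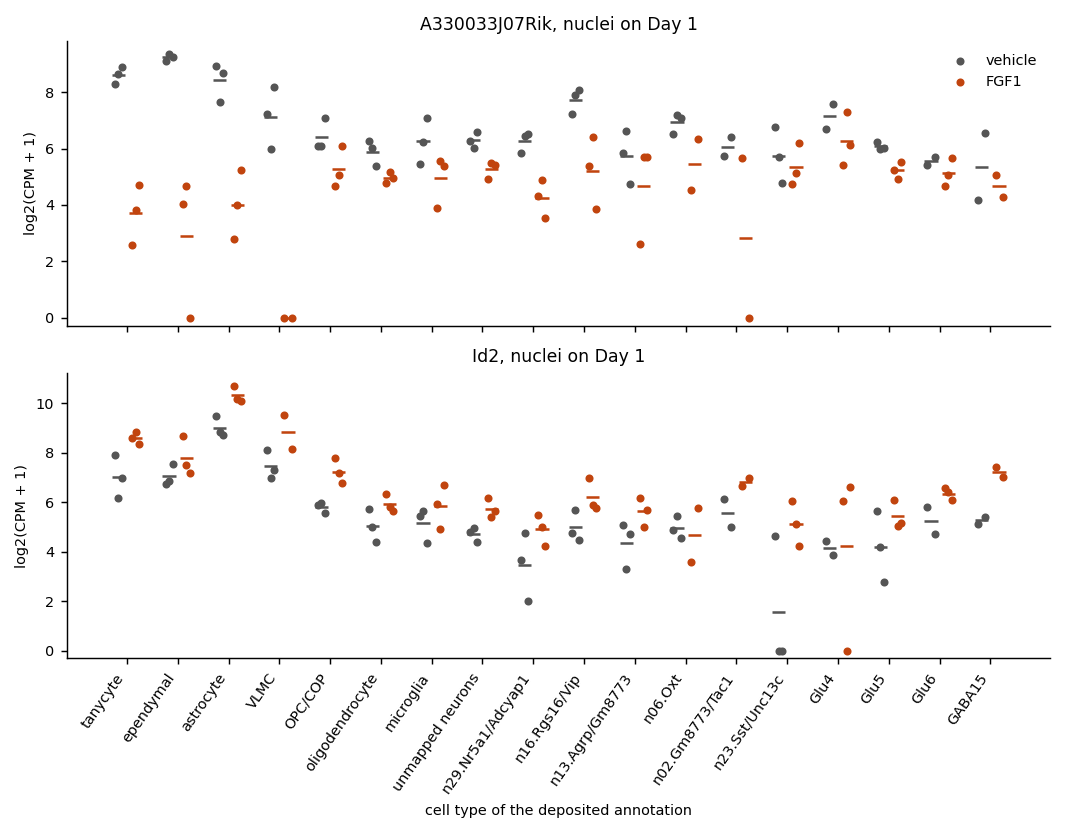
Levels of A330033J07Rik (upper panel) and Id2 (lower panel) in nuclei of vehicle and FGF1 mice on Day 1 by cell type, as log2(CPM + 1) per mouse (dots) with the group mean (short bars). The FGF1 mice lie far below the vehicle mice for A330033J07Rik in ependymal, tanycyte and astrocyte nuclei, and above them for Id2 in astrocyte and tanycyte nuclei.

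Other features of these nuclei differed between the groups as well, and their part in the values above was not tested. A list of 17 genes that respond to tissue handling, mostly immediate early genes, summed to 98.8–141 CPM in astrocyte nuclei with vehicle and 438–910 CPM with FGF1, to 99.8–210 and 391–745 CPM in tanycyte nuclei, and to 132–430 and 465–933 CPM in ependymal nuclei. It was also higher without overlap in COP (43.1–55.5 against 103–234 CPM), VLMC (167–263 against 425–707 CPM) and Nr5a1/Adcyap1 nuclei (6.70–21.8 against 38.9–113 CPM). The same held in nuclei labelled Oxt, Glu5 (24.9–45.9 against 63.0–147 CPM), Sst/Unc13c (0–12.1 against 42.2–181 CPM) and Gm8773/Tac1 (52.7–62.6 against 63.5–119 CPM). It overlapped in oligodendrocyte, Rgs16/Vip and unmapped nuclei and in the remaining types. The 5 astrocyte markers summed to 1865–2408 CPM in astrocyte nuclei with vehicle and 687–1555 CPM with FGF1, with 3 of 5 lower without overlap. The 5 ependymal markers summed to 2578–3563 CPM in ependymal nuclei with vehicle and 827–1435 CPM with FGF1, with 4 of 5 lower, while the neuron list summed to 2210–2578 and 2691–5841 CPM. In tanycyte nuclei the tanycyte list overlapped between the groups, at 2503–3293 and 1332–3188 CPM, and the ependymal list stood lower with FGF1, at 302–528 and 63–95.3 CPM, with 4 of 5 markers lower without overlap. The astrocyte list was lower without overlap in tanycyte nuclei (673–793 against 403–625 CPM) and in ependymal nuclei (810–1003 against 215–536 CPM), as was the oligodendrocyte list (98.1–108 against 50.2–66.5 CPM and 49.5–172 against 17.9–30.6 CPM). In astrocyte nuclei the OPC list was lower (73.0–105 against 39.3–42.6 CPM) and the smooth muscle list higher (0–6.18 against 12.2–27.6 CPM). In oligodendrocyte nuclei their own list was lower without overlap (742–867 against 437–691 CPM, 1 of 5 markers), as was the microglia list (61.1–88.3 against 49.7–55.7 CPM). No marker of the astrocyte, tanycyte, ependymal or neuron lists was at 0 in any of these 3 types.

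On Day 5, in a separate set of 2 vehicle and 2 FGF1 mice, A330033J07Rik was not lower with FGF1 in astrocyte nuclei. It was at 98.7 and 249 CPM with vehicle and 249 and 270 CPM with FGF1, groups that lay close to each other (log2 fold change 0.65 ± 0.42, and from 0.11 to 1.30 without 1 of the vehicle mice). The difference between the days was not tested. None of 22 tests of the 5 genes in 11 types was called by edgeR, with 5 at an unadjusted p below 0.05, and none of 51 was called by DESeq2, with 2 at an unadjusted p below 0.05. Over all genes and types 0.288% of tests were called.

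Tanycyte and ependymal nuclei were too few on Day 5 to be tested, with 9 and 14 tanycyte nuclei in the vehicle mice. In them A330033J07Rik was at 213 and 180 CPM with vehicle and 213 and 216 CPM with FGF1. In ependymal nuclei, of which the vehicle mice gave 3 and 8, it was at 263 and 831 CPM against 312 and 563 CPM. The ependymal groups overlapped, and the tanycyte FGF1 values lay at the level of the higher vehicle mouse. Among the 10 tested types A330033J07Rik had 3 positive and 7 negative log2 fold changes, and the groups stood apart only in the Rgs16/Vip neurons, at 104 and 150 CPM with vehicle and 51.4 and 79.2 CPM with FGF1 (-0.88 ± 0.39), where 15.2% of genes were lower without overlap. In the unmapped neurons the means were nearly equal (-0.02 ± 0.22).

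Of the Id genes in astrocyte nuclei on Day 5, none was called, and the means of Id2, Id3 and Id4 were higher and that of Id1 lower with FGF1. Id3 was at 170 and 304 CPM with vehicle and 586 and 441 CPM with FGF1, with no overlap and a log2 fold change of 1.11 ± 0.40. Id2 was at 363 and 470 CPM against 694 and 573 CPM, again with no overlap (0.55 ± 0.37). Id4 was at 52.9 and 104 CPM against 133 and 85.9 CPM, where the groups overlapped (0.55 ± 0.41, and 0.07 without vehicle replicate 28), and Id1 at 20 and 27.7 CPM against 22.2 and 11.2 CPM (-0.63). With 2 mice a group, 23.5% of all genes tested in astrocyte nuclei were higher without overlap, so that such separations were common.

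In tanycyte nuclei on Day 5, Id3 was at 60.8 and 90.1 CPM with vehicle and 261 and 171 CPM with FGF1, and Id4 at 30.4 and 90.1 CPM against 151 and 105 CPM, both without a test. Among neurons Id2 in the type labelled Glu5 was at 5.32 and 0 CPM against 24 and 24.4 CPM (log2 fold change 2.24 ± 0.68). It rested on 4 and 0 UMIs against 9 and 26, and the vehicle mouse at 0 gave only 11 of these nuclei. Id3 in unmapped neurons had means of 5.1 and 9.8 CPM (1.42 ± 0.55, but 0.58 without vehicle replicate 28 and 1.96 without vehicle replicate 38). The 5 astrocyte markers summed to 2192–2482 CPM in astrocyte nuclei with vehicle and 3361–4932 CPM with FGF1, with 3 of 5 higher without overlap. There the ependymal list (104–143 against 182–232 CPM, 4 of 5 markers) and the COP list (255–415 against 468–527 CPM) were also higher without overlap and the pericyte list lower (17.2–55.3 against 4.92–11.2 CPM), and the handling list summed to 55.3–75.8 and 61.3–61.6 CPM. Their part in the astrocyte values was not tested.

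In whole cells on Day 5, with 6 mice a group, Id1, Id3 and Id4 were higher with FGF1 in astrocytes, Id3 was higher in oligodendrocytes, and Id4 was lower in tanycytes. These were the 5 values called among 30 tests of Id genes, at an FDR below 0.05, and 4.18% of the 56173 tests over all genes and types were called. A330033J07Rik did not pass the filter on low counts in any type, and without that filter, or with DESeq2, it was not called in any of 10 types. Leaving out 1 mouse at a time gave 4 to 8 calls, the 8 without vehicle replicate 35.

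Id3 in astrocytes ranged from 249 to 441 CPM in vehicle mice (median 327) and from 497 to 1295 CPM in FGF1 mice (median 911). All 6 FGF1 mice lay above all 6 vehicle mice and therefore above the vehicle mouse of their batch. The mean was 340 ± 92.2 CPM against 940 ± 306 CPM (SD, n = 6 per group), and the log2 fold change was 1.38 ± 0.24. Id1 ranged from 44.1 to 71.8 CPM in vehicle mice (median 56) and from 73.2 to 131 CPM in FGF1 mice (median 115). Its groups did not overlap either, and so it was higher in 6 of 6 batches, with means of 58 ± 10.3 and 111 ± 20.3 CPM and a log2 fold change of 0.85 ± 0.13. In astrocytes 12.6% of genes tested were called and 4.98% were higher without overlap.

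Id4 in astrocytes ranged from 70.2 to 125 CPM with vehicle (median 91.7) and from 120 to 272 CPM with FGF1 (median 157). The ranges overlapped slightly, and the FGF1 mouse was higher in 6 of 6 batches, with means of 93.1 ± 18.8 and 176 ± 62.2 CPM and a log2 fold change of 0.80 ± 0.20. Id2 in astrocytes, its highest whole-cell type, ranged from 580 to 884 CPM with vehicle (median 835) and from 766 to 1577 CPM with FGF1 (median 1111). Its ranges overlapped, it was higher in 4 of 6 batches, and its log2 fold change of 0.41 ± 0.15 was not called. A330033J07Rik ranged from 2.14 to 5.22 CPM with vehicle and from 4.58 to 8.65 CPM with FGF1, on 42 and 38 UMIs.

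Id4 in tanycytes, its highest whole-cell type, ranged from 134 to 224 CPM with vehicle (median 168) and from 90.8 to 145 CPM with FGF1 (median 113). The FGF1 mouse was lower in 6 of 6 batches, with means of 174 ± 35.3 and 117 ± 21.7 CPM and a log2 fold change of -0.51 ± 0.14. In tanycytes 5.08% of genes tested were called. The call was lost on leaving out any of 6 mice, and then the log2 fold change was between -0.51 and -0.44, without FGF1 replicates 7, 10 and 36 and without vehicle replicates 20, 25 and 27. The opposite signs of Id4 in merged astrocytes and tanycytes held in every batch, the difference was not tested, and the log2 fold change of Id4 was not above 0 within either astrocyte cluster.

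Among the other members in tanycytes, the mean of Id2 was 131 CPM with vehicle and 95.7 CPM with FGF1 (log2 fold change -0.42 ± 0.16), that of Id3 90.3 and 114 CPM (0.38 ± 0.15, higher in 5 of 6 batches) and that of Id1 19 and 18.8 CPM. None of them was called without a batch term. With the batch, which pairs the mice, as a term, Id3 in tanycytes was called higher. A330033J07Rik had means of 6.45 and 3.34 CPM and was lower in 5 of 6 batches, without a test. Ependymal cells, the ciliated cells of the same ventricular wall, had Id4 from 121 to 224 CPM with vehicle (median 138) and from 86.4 to 138 CPM with FGF1 (median 111), with overlap (-0.48 ± 0.16, lower in 5 of 6 batches). Their A330033J07Rik mean was 7.84 ± 3.44 CPM against 2.80 ± 2.75 CPM, lower in 6 of 6 batches but on 23 and 14 UMIs.

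Id3 had a higher mean with FGF1 in 11 of 11 types, and 9 of its 10 tested log2 fold changes were positive, with a median of 0.50. These types came from the same mice, so the counts over types are not independent. In oligodendrocytes, the myelin-forming cells, Id3 ranged from 43.8 to 67.4 CPM with vehicle (median 48.8) and from 47.6 to 117 CPM with FGF1 (median 90.4). The ranges overlapped, it was higher in 5 of 6 batches, and its log2 fold change of 0.79 ± 0.16 was called, as were 2.25% of genes tested in oligodendrocytes.

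In endothelial cells, where Id1 and Id3 mediate BMP9 and BMP10 responses of vessels, Id3 had means of 1136 and 1478 CPM (0.39 ± 0.14) and Id1 of 1000 ± 332 and 1183 ± 112 CPM (0.25 ± 0.17), neither of them called. Id3 in ependymal cells had means of 77.8 and 100 CPM (0.50 ± 0.19) and in microglia of 80.5 and 101 CPM (0.50 ± 0.22). In VLMC the Id3 means of 1115 and 1136 CPM were nearly equal, and the sign of its log2 fold change (-0.03 ± 0.38) turned in 8 alternatives. Id2 in OPC, where it is known to hold back differentiation, had means of 398 and 384 CPM (-0.08), and in microglia of 535 and 739 CPM (0.46 ± 0.26).

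The remaining types held few cells. In pericytes, the mural cells of capillaries, Id3 ranged from 52.9 to 307 CPM with vehicle (median 231) and from 53.4 to 937 CPM with FGF1 (median 503), higher in 5 of 6 batches on 49 and 115 UMIs, without a test. In macrophages, from 4 vehicle and 5 FGF1 mice, Id3 had means of 122 and 226 CPM (log2 fold change 0.66 ± 0.41) and Id4 of 26.6 and 55.9 CPM without a test. The ranges overlapped in both types. In COP, of which the vehicle mice gave few, Id3 had means of 29.3 and 49.1 CPM on 10 and 172 UMIs.

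**Figure D4:**
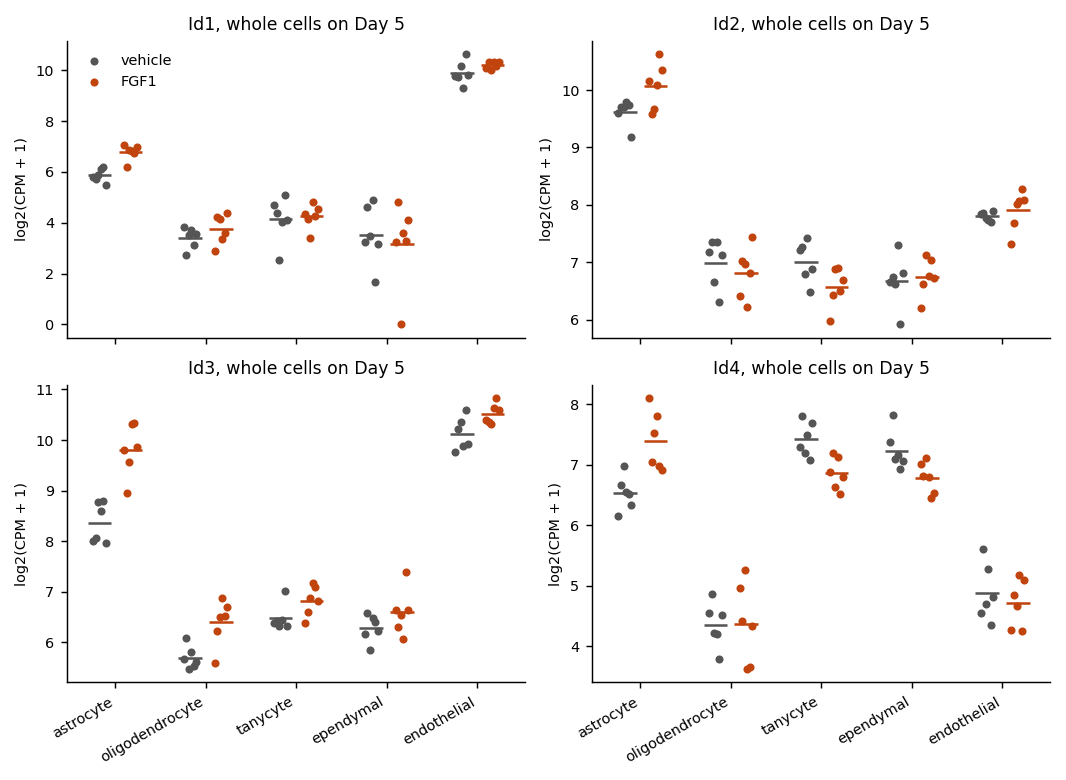
Levels of Id1, Id2, Id3 and Id4 in 5 whole-cell types of vehicle and FGF1 mice on Day 5, per mouse (dots) with the group mean (short bars). In astrocytes the FGF1 mice lie above the vehicle mice without overlap for Id1 and Id3, and in tanycytes they lie lower for Id4.

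The handling list was also summed in whole cells on Day 5. It summed to 1678–3686 CPM in astrocytes of vehicle mice and 662–1686 CPM with FGF1, where 9 of 14 tested genes were called lower, to 2730–4461 and 2517–7883 CPM in tanycytes and to 622–1153 and 860–1161 CPM in oligodendrocytes. In tanycytes edgeR called 0 of 17, with 4 at an unadjusted p below 0.05, and DESeq2 called 1. In oligodendrocytes edgeR called 0 of 13, with 2 at an unadjusted p below 0.05, and DESeq2 called 0. Its part in the Id values was not tested. The astrocyte markers summed to 4358–5224 CPM in astrocytes with vehicle and 4979–6192 CPM with FGF1, the tanycyte markers to 1276–1554 and 1302–1854 CPM in tanycytes, and the oligodendrocyte markers to 6129–8908 and 6519–11295 CPM in oligodendrocytes, all with overlap. In ependymal cells the handling list summed to 2449–6793 and 1818–3898 CPM, where edgeR called 0 of 16, with 8 at an unadjusted p below 0.05, and DESeq2 called 4 of 17. The 5 COP markers were higher there with FGF1 without overlap (154–223 against 228–276 CPM), with 1 of 5 higher on its own, and the part of either list in the ependymal values was not tested.

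The astrocytes of the 2 groups fell largely into different clusters. Cluster 1 held 27.3% of all vehicle cells and 5.94% of all FGF1 cells, and cluster 4, which was led by Gfap, Serpina3n and Aqp4, genes that reactive or perivascular astrocytes express, held 2.39% and 13.2%. Id4 in cluster 1 had means of 82.3 and 94 CPM, while its log2 fold change of -0.37 ± 0.23 had the other sign and the FGF1 mouse was lower in 4 of 6 batches. In cluster 4, where its level was higher in both groups, it had means of 202 and 200 CPM (-0.09 ± 0.18). The log2 fold change of Id4 was thus 0.80 in merged astrocytes and below 0 within each cluster, with higher and nearly equal mean CPM there. The part of the cluster split in the merged Id4 value was not tested.

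Id3 had a higher mean with FGF1 within both clusters, with ranges that overlapped. In cluster 1 it ranged from 242 to 425 CPM with vehicle (median 328) and from 279 to 963 CPM with FGF1 (median 708), with a log2 fold change of 1.01 ± 0.26, higher in 5 of 6 batches. In cluster 4 it ranged from 149 to 667 CPM (median 530) and from 564 to 1430 CPM (median 1013), with a log2 fold change of 1.01 ± 0.31, higher in 6 of 6 batches. Neither value was called within a cluster, where 0.404% of genes tested in cluster 1 and 0.385% in cluster 4 were called. Id2 in cluster 4 was called, from 592 to 871 CPM with vehicle (median 740) and from 791 to 1589 CPM with FGF1 (median 1126), with a log2 fold change of 0.61 ± 0.14 and higher in 6 of 6 batches, and in cluster 1 it was not called (0.37). Id1 had log2 fold changes of 0.48 ± 0.19 in cluster 1, higher in 3 of 6 batches, and 0.60 in cluster 4, higher in 4 of 6, with overlap in both and neither of them called.

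**Figure D5:**
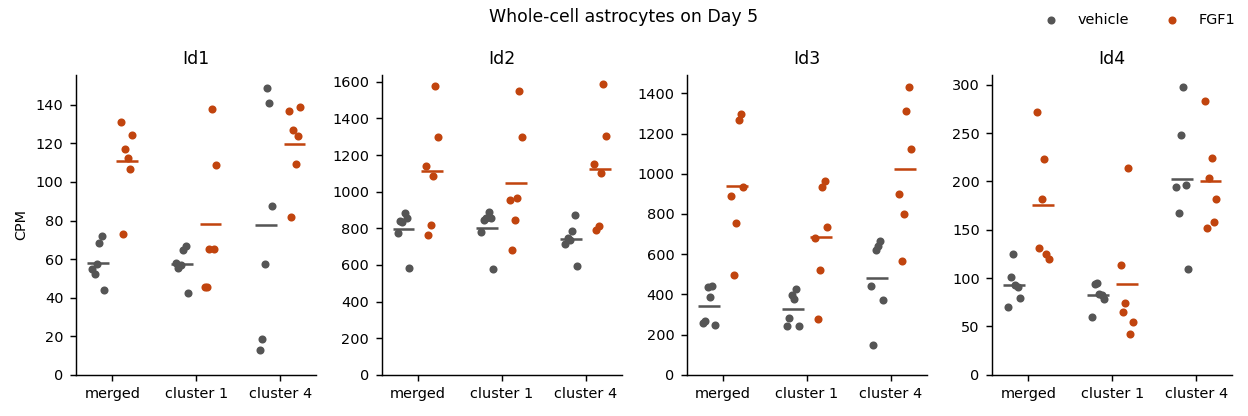
CPM of Id1, Id2, Id3 and Id4 in astrocytes of vehicle and FGF1 mice on Day 5, for merged astrocytes and for clusters 1 and 4 apart, per mouse (dots) with the group mean (short bars). Id3 means are higher with FGF1 in merged astrocytes and in both clusters, while Id4 means differ in merged astrocytes and lie at 202 and 200 CPM in cluster 4.

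The tanycyte clusters also held unlike shares of the groups, cluster 0 with 13.9% of all vehicle and 21.2% of all FGF1 cells, cluster 7 with 2.03% and 10.6%, and cluster 10 with 1.92% and 3.95%. Id4 in cluster 0 ranged from 181 to 234 CPM with vehicle (median 195) and from 94.1 to 167 CPM with FGF1 (median 136). Every FGF1 mouse was lower than the vehicle mouse of its batch, and the log2 fold change of -0.52 ± 0.13 was called, as were 5.27% of genes tested in that cluster. Id2 was called there as well, at medians of 154 and 104 CPM (-0.51 ± 0.14, lower in 6 of 6 batches), but in cluster 7 its means were 54.2 and 69.7 CPM (0.36, higher in 4 of 5 batches) and were not called. In cluster 7 the means of Id4 were 152 and 117 CPM (-0.40 ± 0.22, lower in 3 of 5 batches) and in cluster 10 they were 69.6 and 47.3 CPM without a test, both lower with FGF1.

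Oligodendrocytes were divided likewise, with 19.3% of all vehicle and 6.98% of all FGF1 cells in cluster 2, 0.570% and 4.70% in cluster 11, and 3.27% and 0.865% in cluster 12. Id3 in cluster 2 ranged from 46.2 to 65.7 CPM with vehicle (median 50.3) and from 76.1 to 232 CPM with FGF1 (median 110). It was higher in 6 of 6 batches, and the log2 fold change of 1.21 ± 0.20 was called, as were 0.904% of genes tested in the cluster. In the other clusters Id3 was not tested, with medians of 38.2 and 70.3 CPM in cluster 11 (higher in 5 of 6 batches) and means of 45.0 and 41.2 CPM in cluster 12 (higher in 2 of 4 batches).

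The genes around the Id proteins were followed in 8 lists of 49 genes, namely BMP ligands, receptors, Smads, intracellular inhibitors and secreted regulators, E proteins, tissue-specific bHLH factors and the Hes and Hey repressors. On Day 1 in nuclei 1 of 152 tests was called (0.658%, against 1.05% of all genes), with a median log2 fold change of 0.11. It was Fstl1, a secreted BMP antagonist, in VLMC nuclei, where the mean was 117 ± 29.4 CPM in 3 vehicle mice and 607 ± 408 CPM in 2 FGF1 mice (log2 fold change 2.51 ± 0.64, edgeR quasi-likelihood test, FDR = 0.0111), a value of 1.39 without FGF1 replicate 3, and 8 of 10 alternatives lost the call. DESeq2 did not call it, and called 1 other list gene, the ligand Bmp2 in tanycyte nuclei, with 0 UMIs in vehicle and 29 in FGF1 mice, which was named after its values were seen. None of 50 tests of BMP receptors, 14 of Smads and 36 of E proteins was called by edgeR, where 4, 1 and 4 had an unadjusted p below 0.05. DESeq2 called 0 of its 127, 69 and 54 tests of these lists, with 5, 0 and 6 at an unadjusted p below 0.05. Of the edgeR values for E proteins 30 of 36 were positive, with a median of 0.30. They are values of 3 genes over cell types of the same mice, so they are not independent. The share of positive values over all genes is not given here.

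On Day 5 in nuclei 1 of 140 tests was called (0.714%, against 0.288% of all genes). Bmp4, a BMP ligand made by committed oligodendrocyte precursors, was at 11.2 CPM with vehicle and 73.5 CPM with FGF1 in COP nuclei, on 3 UMIs against 82 (log2 fold change 2.74 ± 0.66, edgeR FDR = 0.0302), and 4 of 9 alternatives lost the call. The COP label joins both precursor stages and Bmp4 was among the leading genes of the whole-cell COP cluster, which held 0.563% of vehicle and 6.14% of FGF1 cells, against 8.37% and 5.34% in OPC cluster 5. The part of the label's make-up in the Bmp4 value was not tested.

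In whole cells 11 of 162 tests were called (6.79%, against 4.18% of all genes), 6 higher and 5 lower, with a median log2 fold change of 0.02 over all 162. In merged astrocytes, where 12.6% of all genes were called, 3 BMP receptors were higher with FGF1. Bmpr1a, the main type I receptor for BMP2 and BMP4, rose from 92.7 ± 6.70 to 168 ± 19.7 CPM without overlap between the groups (log2 fold change 0.79 ± 0.11, edgeR FDR = 1.43e-05). Bmpr1b rose from 62.4 to 95.8 CPM (0.51, edgeR FDR = 0.0116), and the type II receptor Bmpr2 from 65.0 to 93.3 CPM (0.41, edgeR FDR = 0.0269), a call that 5 alternatives lost.

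Also in astrocytes, Twsg1, a secreted protein that binds BMPs together with chordin, rose from 10.1 to 19.4 CPM (0.90, edgeR FDR = 0.0104), and Smurf2, a ubiquitin ligase that acts on Smads and their receptors, from 15.1 to 23.7 CPM (0.58, edgeR FDR = 0.0433). The Smurf2 call was lost in 12 of 18 alternatives. The repressor Hey1, a Notch and BMP target, rose from 43.5 to 71.1 CPM (0.58, edgeR FDR = 0.0221). Hes1, of the same list, went the other way in astrocytes, from 367 to 239 CPM. DESeq2 called it lower (log2 fold change -0.70, DESeq2 FDR = 0.0103) and edgeR did not call it, and it was named after its values were seen. Within astrocyte clusters 1 and 4, which hold unlike shares of the groups, neither the receptors nor Smurf2, Hey1 or Olig2 were called, and Twsg1 was not tested. Bmpr1a had log2 fold changes of 0.49 ± 0.16 in cluster 1 and 0.07 ± 0.16 in cluster 4, Bmpr1b of 0.23 and 0.13, Bmpr2 of 0.06 ± 0.19 and -0.27 ± 0.19, and Hey1 of 0.09 and 0.22. Those of Smurf2 were 0.32 ± 0.30 and 0.88 ± 0.46. Olig2 had -0.49 ± 0.30 and -1.05 ± 0.38, against -0.93 in merged astrocytes. The part of the cluster split in the merged values was not tested. None of 21 tests of Smads, 4 of ligands and 26 of E proteins was called by edgeR in whole cells, where 4, 1 and 1 had an unadjusted p below 0.05. DESeq2 called 1 of its 43 tests of Smads and 0 of its 49 and 33 tests of ligands and E proteins, with 4, 2 and 2 at an unadjusted p below 0.05. The Smad was Smad9, higher in astrocytes on 30 UMIs with vehicle and 49 with FGF1 (log2 fold change 1.55, DESeq2 FDR = 0.0270).

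The 5 calls among tissue-specific bHLH factors, all lower with FGF1, were of 2 genes, Olig2 in 2 types and Bhlhe41 in 3. Olig2, the factor that directs the oligodendrocyte lineage, fell from 32.7 to 18.8 CPM in astrocytes (edgeR FDR = 0.00298) and from 496 to 362 CPM in OPC (edgeR FDR = 0.0077). Bhlhe41, a transcriptional repressor of the circadian system, fell from 87.1 to 39.6 CPM in oligodendrocytes (edgeR FDR = 0.0013), from 72.3 to 45.1 CPM in tanycytes (edgeR FDR = 0.0106) and from 74.4 to 48.9 CPM in OPC (edgeR FDR = 0.0442). The OPC call of Bhlhe41 was lost in 11 of 18 alternatives. In the same OPC the 5 COP markers summed to 1896–2314 CPM with vehicle and 1602–1884 CPM with FGF1, with 2 of 5 lower without overlap, the 4 neuron markers to 1018–1137 and 748–946 CPM, and 2 of 11 tested handling genes were called higher. Their part in the OPC values was not tested.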

How the data were processed

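The authors deposited raw UMI counts per gene and barcode, made with Cell Ranger 1.2 on GRCm38 per the labels and methods, with intronic reads included for nuclei, and metadata with sample, batch and cluster, plus cell type labels for nuclei. The authors' normalized values were not used. Doublets had been removed by the authors from whole cells with Scrublet, and no caller was run here. The 660 nuclei that the metadata mark as filtered were left out, and whole-cell clusters were named from marker genes by a rule set after their profiles were seen. Neurons were taken out of the whole-cell data by the authors, whose metadata also give the deposited percentage of mitochondrial and ribosomal UMIs per cell.

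UMI counts of all barcodes of a type were added up within each mouse, with at least 10 barcodes per mouse and at least 2 mice per group, and fitted with edgeR's quasi-likelihood test (edgeR 4.0.16, R 4.3.3, filterByExpr, TMM, Benjamini-Hochberg FDR below 0.05 over all genes of a type). Mice were the replicates. The fit was checked on simulated counts. Alternatives were DESeq2 1.42.0, RLE scaling, no filter, at least 20 barcodes, barcodes within the stated mitochondrial and ribosomal limits (5% in nuclei, 20% in cells), leaving out each mouse, a replicate block and a batch term. Batches each held 1 FGF1 and 1 vehicle mouse. Genes named beside the members were the called list genes, up to 5 per list in tanycytes, ependymal cells and astrocytes and 3 elsewhere, and the 3 genes most like each member, of which 1 is not reported here. Members and lists were chosen with earlier results of these data known.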

Additional observations from a re-analysis of the deposited data

Results flagged for a closer look

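In 60 groups of 4 to 6 whole-cell mice, 4 held a member value that stood apart from the rest of its group by Dixon's criterion, where chance gives about 1 in 20. Id2 in astrocytes was at 580 CPM in vehicle replicate 25, below the 775 to 884 CPM of the other 5 vehicle mice. Id3 was at 167 CPM in ependymal cells of FGF1 replicate 10, above 66.4 to 98.5 CPM, at 345 CPM in macrophages of FGF1 replicate 7, above 169 to 213 CPM, and at 129 CPM in tanycytes of vehicle replicate 35, above 78.8 to 85.8 CPM.

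The log2 fold change of Id4 was 0.80 in merged astrocytes and -0.51 in tanycytes of the same mice. It drew attention because every batch had Id4 higher with FGF1 in astrocytes and lower in tanycytes. The difference was not tested. Within astrocyte clusters 1 and 4 the log2 fold change of Id4 was -0.37 and -0.09, with the FGF1 mouse lower in 4 of 6 batches in each.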

How the results depend on the processing

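For Day 1 nuclei, 3 member values were called, against 5 with DESeq2, 7 with no low-count filter, 4 within the stated limits, 2 with at least 20 barcodes, where ependymal nuclei were no longer tested, and 2 to 4 when 1 mouse was left out. DESeq2 added A330033J07Rik in Nr5a1/Adcyap1 neurons and Id4 in ependymal nuclei, and the unfiltered fit added those, A330033J07Rik in Rgs16/Vip neurons and Id2 in tanycytes. On Day 5 leaving out 1 mouse gave 0 to 2 calls in nuclei, the 2 (Id3 and A330033J07Rik in astrocytes) without vehicle replicate 38, and 4 to 8 in whole cells. In nuclei such a fit leaves 1 mouse in a group, which is assumed to vary like the other group. The 8 called member values kept their sign in 128 alternatives and their call in 120. The 71 uncalled ones changed sign in 55 of 929.

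The list genes had 1 call on Day 1, against 0 with at least 20 barcodes, within the stated limits, with a batch term or with the replicate block, 3 with no filter and 0 to 1 without 1 mouse. On Day 5 nuclei had 1 call, against 0 with DESeq2, with at least 20 barcodes or with a batch term and 0 to 1 without 1 mouse, and whole cells had 11, against 7 to 18 without 1 mouse. The cause of these shifts was not tested. The batch term in nuclei and the separate cluster fits were chosen after seeing the data.

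Day 1 replicate numbers are shared between the groups, but same-numbered mice were in different batches. Across astrocyte, tanycyte and unmapped nuclei, deviations of same-numbered mice correlated from -0.527 to 0.549, and those of mice of one batch from -0.686 to 0.0835. FGF1 replicate 1 correlated best with vehicle replicate 2. Deviations from a mean of 3 mice depend on each other, so these correlations cannot show which mice were paired. With the replicate block 3 member values were called. On Day 5 the groups share fewer than 2 numbers and only the batch pairs the mice, and with a batch term 0 member values were called in nuclei and 6 in whole cells, Id3 in tanycytes being added. Few nuclei limit tanycyte and ependymal values, most of all on Day 5.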
